A study of Mus musculus with 400 samples.

Results

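Single Lgr5-high cells sorted from mouse small intestine were split here into cells that carried the transcripts of DNA replication and cells that carried those of mitosis. The first, called S cells, were 87 of the 380 cells kept, and the second, called M cells, were another 87, out of 400 single cells in the series. Each cell got an S value, the mean log2(CPM + 1) of Pcna, Mcm2, Mcm3, Mcm5, Mcm6, Gins2 and Rrm2, where CPM is a gene's count scaled to a total of 1000000 counts per cell. It also got an M value, the same mean for Ccnb1, Ccnb2, Cdc20, Plk1, Aurka, Cenpf and Cenpe. S cells lay in the upper tertile of the S value and outside the upper tertile of the M value, and M cells the reverse. Another 40 cells were in both upper tertiles, and the rest, 43.7% of the kept cells, were in neither.

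All cells came from 1 sorted population of Lgr5 GFP/+ mice, with no treatment or age given for these cells. The allele, Lgr5::EGFP-IRES-Cre-ERT2, puts a green fluorescent protein and an inducible recombinase under the Lgr5 promoter. Crypts came from duodenum and jejunum, and cells were captured on a Fluidigm C1 chip. Per the labels' protocols, the SMARTer kit served for amplification. A tamoxifen dose and a Cyp1a1::H2B-YFP strain also appear in those protocols, for lineage tracing and strain supply, and no label ties either to these cells. No animal is named for any cell, so the population is 1 sample. Cells were not treated as replicates in the comparison of S with M cells, which therefore carries no p-value.

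Crypt base cells that express Lgr5, a receptor for R-spondin, renew the intestinal lining and divide often. Before replication, Cdc6 and Cdt1 load the Mcm helicase onto origins, and E2F transcription factors switch on the genes for this step, for the polymerases and for nucleotide supply. In G2 and mitosis another group of genes is switched on, through the B-Myb and FoxM1 complexes, many of them at a promoter element called the CHR. Their products build the spindle and the kinetochores, separate the chromatids and cut the cell apart, and many of them are then destroyed by the anaphase-promoting complex.

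Both classes were of like depth. Kept cells held 10766 to 70133 counts, with a median of 32112. The median total was 35098 counts in S cells and 33503 in M cells, against 38881 in cells high in both values and 27913 in cells high in neither. The median number of genes with a count was 8567 in S cells and 8518 in M cells. Mitochondrial transcripts took a median of 0.809% of the counts of S cells and 0.862% in M cells. Across the 380 cells, Spearman's rho with total counts was 0.31 for the S value and 0.36 for the M value, so depth moved with both gates. Between the S value and the M value, Pearson's r was 0.00 and Spearman's rho -0.01, over cells that share library sets and differ in depth. Each title carries 1 of 10 numbers, here called a library set, and a barcode. What a library set stands for is not given in the sources used here. All 40 barcode numbers occurred in every set, and no pair of cells had identical columns.

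**Figure D1:**
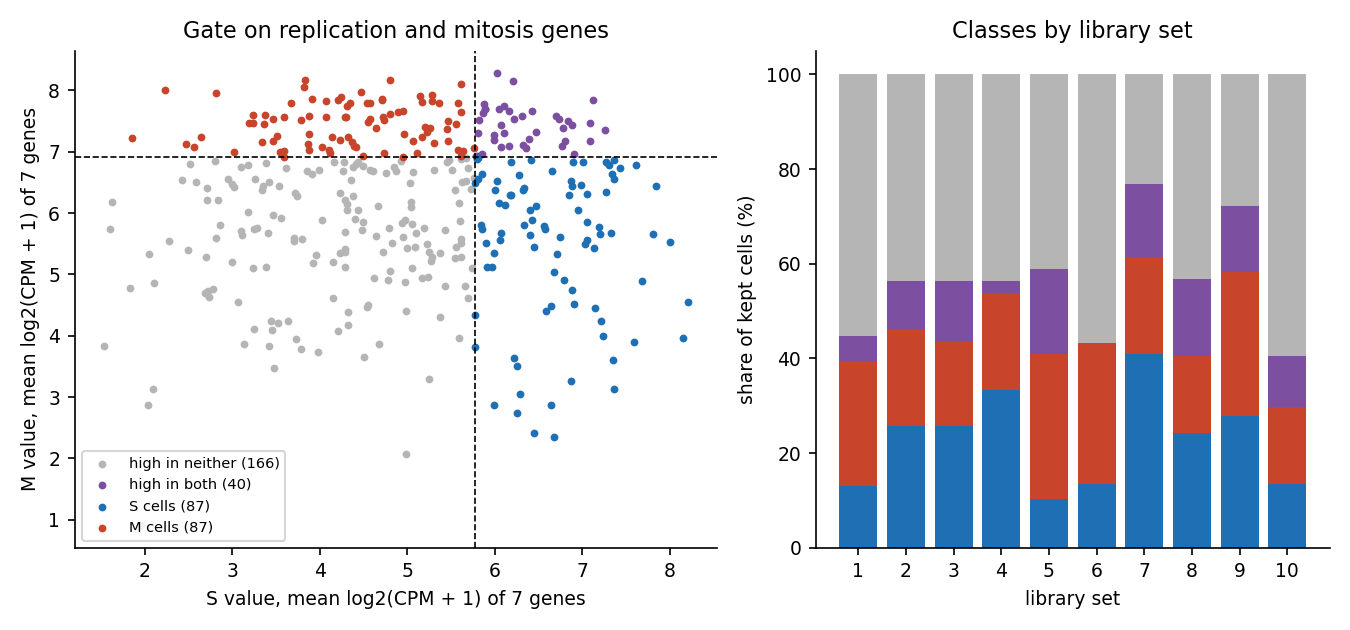
Left, the S value of each kept cell (x axis, mean log2(CPM + 1) of 7 genes) against its M value (y axis, same unit), coloured by class, with dashed lines at the 2 gate limits. Right, the share of kept cells in each class (y axis, percent) in each of the 10 library sets (x axis), in the same colours. The points fill the plane with no gap at either line, and S cells made up from 10.3% of a set (set 5) to 41.03% (set 7).

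The limits cut through a continuum of values. The lowest S value inside the upper tertile was 5.771 and the highest outside it was 5.763. For the M value, these were 6.916 and 6.901. Within 0.1 of its limit lay 23 cells for the S value and 34 for the M value. The classes are therefore ranges of a score. The share of M cells ran from 16.2% to 30.8% of a library set, with a median of 20.5%. Doublets were not removed, and how many of the cells high in both values hold more than 1 cell was not tested.

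The gate genes describe the classes and support nothing, since they chose the cells. Pcna, the sliding clamp of the polymerases, had 24.1, 252.8 and 521 CPM (lowest, median and highest) in S cells and 0, 72.8 and 327.2 CPM in M cells. For Mcm5, a helicase subunit, the values were 0, 164.7 and 510 CPM in S cells and 0, 45.1 and 258.7 CPM in M cells. Ccnb1, the cyclin that drives entry into mitosis, ran from 0 through 63.9 to 476 CPM in S cells and from 38.03 through 203.96 to 603 CPM in M cells. Plk1, a mitotic kinase, had 0, 31.9 and 464 CPM in S cells and 0, 124.1 and 716 CPM in M cells. The ranges over cells overlapped for all 4 of these markers, which carry the names of the classes. Counts of all 7 S genes were present in 52 of the 87 S cells and in 1 M cell. Counts of all 7 M genes were present in 82 of the 87 M cells and in 26 S cells.

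The rest of the genome was then compared with the 14 gate genes left out. A gene was measured where at least 10% of kept cells had a count and its mean was 10 CPM or more in either class, which left 13636 genes. The value of a gene is the log2 ratio of its mean CPM, M cells over S cells, with 1 CPM added to each mean. Its spread is the SD of the single-set ratios over the 10 library sets, where each set held 4 to 16 S cells and 6 to 12 M cells. That SD is not the error of the ratio over all cells. Means 1.5-fold or more higher in M cells occurred in 850 of the measured genes (6.23%), and 993 (7.28%) were that much higher in S cells. A gene went the same way in all 10 sets much less often, in 51 genes (0.374%) for M cells and 17 genes (0.125%) for S cells. How many genes would do so without a difference between the classes was not tested. No deposited value exceeded 36 counts. Whether the values are molecule counts or on a transformed scale is not given in the sources used here, and every CPM and ratio is on their scale.

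Gene lists for the steps of the cell cycle set these genes in order. The lists and the S and M classes were chosen with earlier results of these data known, so their direction is not independent evidence. For list members a count in 5% of kept cells was enough, and over all 20818 genes that met this, 2110 (10.1%) were 1.5-fold or more higher in M cells and 2482 (11.9%) in S cells. At any size, 49.2% were above 0 and 50.8% below. Of the members of the 6 DNA replication lists, which hold 16 to 32 genes each, all but 20 were below 0, a share of 84.96%. Among them 42 (31.6%) were 1.5-fold or more higher in S cells, against 1 member in M cells. Their median log2 ratio was -0.37 (SD 0.19 over 10 sets), against -0.01 over all genes. Of the members of the G2 and mitosis lists all but 29 were above 0, a share of 82.3%. There 40 (24.4%) were 1.5-fold or more higher in M cells and 2 in S cells. Their median was 0.31 (SD 0.13), and it was above 0 in each of the 10 sets.

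**Figure D2:**
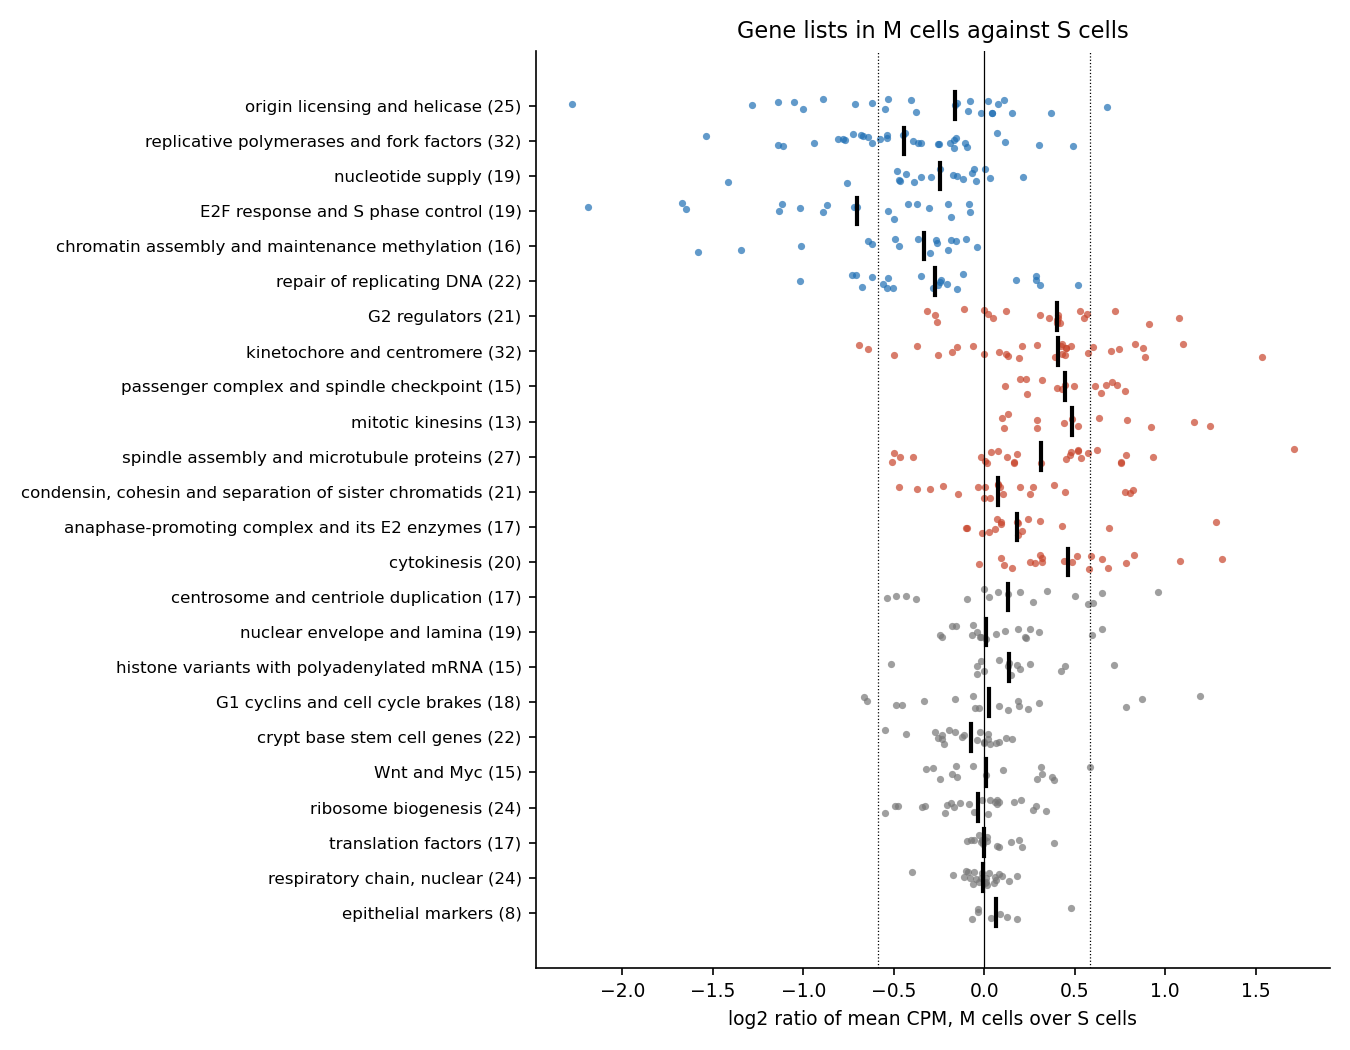
Log2 ratio of mean CPM, M cells over S cells (x axis), for each member of the gene lists shown (y axis, with the number of members). A black bar marks each list's median, and dotted lines mark 1.5-fold. Blue points are replication lists, red points G2 and mitosis lists, and grey points the others. The E2F response list has its median at -0.71 with all 19 members below 0, and the crypt base stem cell list has its median at -0.07 with no member past a dotted line.

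The list of origin licensing and helicase genes was uneven. Of its 25 members, 8 were 1.5-fold or more higher in S cells and 1 in M cells, and the list's median was -0.16 (SD 0.30). It was -0.31 without library set 1, -0.34 without library set 6 and -0.40 with the upper quartile as gate. Cdc6, the loader of the Mcm helicase, had class means of 58.8 CPM in S cells and 11.3 CPM in M cells. Its set means ran from 12.04 through 50.1 to 212.2 CPM in S cells and from 0 through 4.44 to 36.7 CPM in M cells, so they overlapped across sets. Within each of the 10 sets the S cells were higher. The log2 ratio was -2.28 (SD 1.59). The gene (ENSMUSG00000017499.15) lies at chr11:98907801-98923940 on the plus strand of GRCm38. After each cell was thinned to 19169 counts, 48.1% of 81 S cells had a Cdc6 count (exact Clopper-Pearson 95% interval 36.9% to 59.5%) and 13.4% of 82 M cells (6.89% to 22.7%). At full depth the shares were 54.02% and 22.99%. These intervals, here and for other genes, take each cell as an independent draw from 1 sample. They do not cover differences between animals or library sets.

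Cdt1, its partner in loading, had set means of 127.5, 188.9 and 266.8 CPM (lowest, median, highest) in S cells and 47.1, 71.9 and 148.3 CPM in M cells. The log2 ratio was -1.05 (SD 0.69), lower in M cells in 10 of 10 sets, although the lowest S mean lay inside the range of the M means. The helicase subunit Mcm4 (100.9 and 40.9 CPM in S and M cells) and the helicase cofactor Cdc45 (52.9 and 23.4 CPM) were lower in M cells in 9 of 10 sets each. Dbf4 went the other way. It encodes the activator of the Cdc7 kinase, which fires origins, and had 74.7 CPM in S cells and 119.9 CPM in M cells, with a log2 ratio of 0.68 (SD 0.82) and the M cells higher in all 10 sets. It was the single member of the replication lists among the 51 genes higher in M cells in every set.

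Genes that respond to E2F and control S phase stood furthest from 0 of the 6 replication lists. All 19 were below 0, with a median of -0.71 (SD 0.43), and 10 were 1.5-fold or more higher in S cells. Ccne2 and Ccne1 encode the E cyclins, which activate Cdk2 at the start of S phase. Ccne2 had 50.9 CPM in S cells and 15.3 CPM in M cells, and Ccne1 had 18.4 and 5.19 CPM. Both were higher in S cells in 9 of 10 sets. Ccne2 has an exon that overlaps Ints8, and counts of such a pair are uncertain, because no use of strand is stated. Ung, the glycosylase that removes uracil from DNA, had 47.6 and 9.65 CPM, a log2 ratio of -2.19 (SD 2.01). With cells thinned to equal totals before the gate, Ung was at -1.56. At the other end of this list, Cdc25a and Rbl1 were both at -0.08. They took the other sign in 6 and 2 of the 21 alternative settings.

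At the fork, 12 of 32 members were 1.5-fold or more higher in S cells and none in M cells, with a median of -0.44 (SD 0.33). Lig1, the ligase that joins Okazaki fragments, had set means of 142.2, 221.8 and 334.9 CPM in S cells and 54.5, 98.3 and 155.4 CPM in M cells. The highest M mean lay above the lowest S mean, yet in each of the 10 sets the S cells were higher, with a log2 ratio of -1.14 (SD 0.69). Dscc1, which helps load the clamp, had 27.1 and 8.69 CPM, and Dna2, a nuclease of the fork, had 42.9 and 24.5 CPM. Dna2 was higher in S cells in all 10 sets and Dscc1 in 9. Top1, the topoisomerase, was at 0.12 (229.4 and 248.8 CPM, SD 0.23).

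Nucleotide supply had a median of -0.24 (SD 0.24), with 16 of 19 members below 0. The median was below 0 in 9 of 10 sets. There, 2 of 19 members (10.5%, against 11.9% of all genes) were 1.5-fold or more higher in S cells. Among these was Dck, the deoxycytidine kinase, with 39.6 and 14.2 CPM in S and M cells. Rrm1, the large subunit of ribonucleotide reductase, had 207.2 and 148.1 CPM, a log2 ratio of -0.48 (SD 0.42), while its partner Rrm2 was a gate gene. Shmt1 and Atic, of one-carbon and purine metabolism, were at 0.03 and 0.01.

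Chromatin assembly and repair genes leaned the same way. All 16 genes of chromatin assembly and maintenance methylation were below 0, with a median of -0.33 (SD 0.20) and 5 members past 1.5-fold. Those near 0 included Rbbp7 (-0.04) and Asf1a (-0.10), which took the other sign in 4 and 2 of the 21 alternative settings. Chaf1b, a subunit of the assembly factor CAF-1, had set means of 38.5, 73.9 and 159.3 CPM in S cells and 8.03, 14.9 and 82.1 CPM in M cells. Hells, a chromatin remodeller, had 112.05, 181.2 and 209.2 CPM against 37.1, 74.05 and 190.3 CPM. In both genes the ranges of set means overlapped, and in both the S cells were higher within every set, with log2 ratios of -1.58 (SD 1.01) and -1.01 (SD 0.57). Uhrf1, which brings Dnmt1 to newly copied DNA, was at -1.34 (120.5 and 46.9 CPM, 9 of 10 sets). Of 22 repair genes 5 were 1.5-fold or more higher in S cells.

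**Figure D3:**
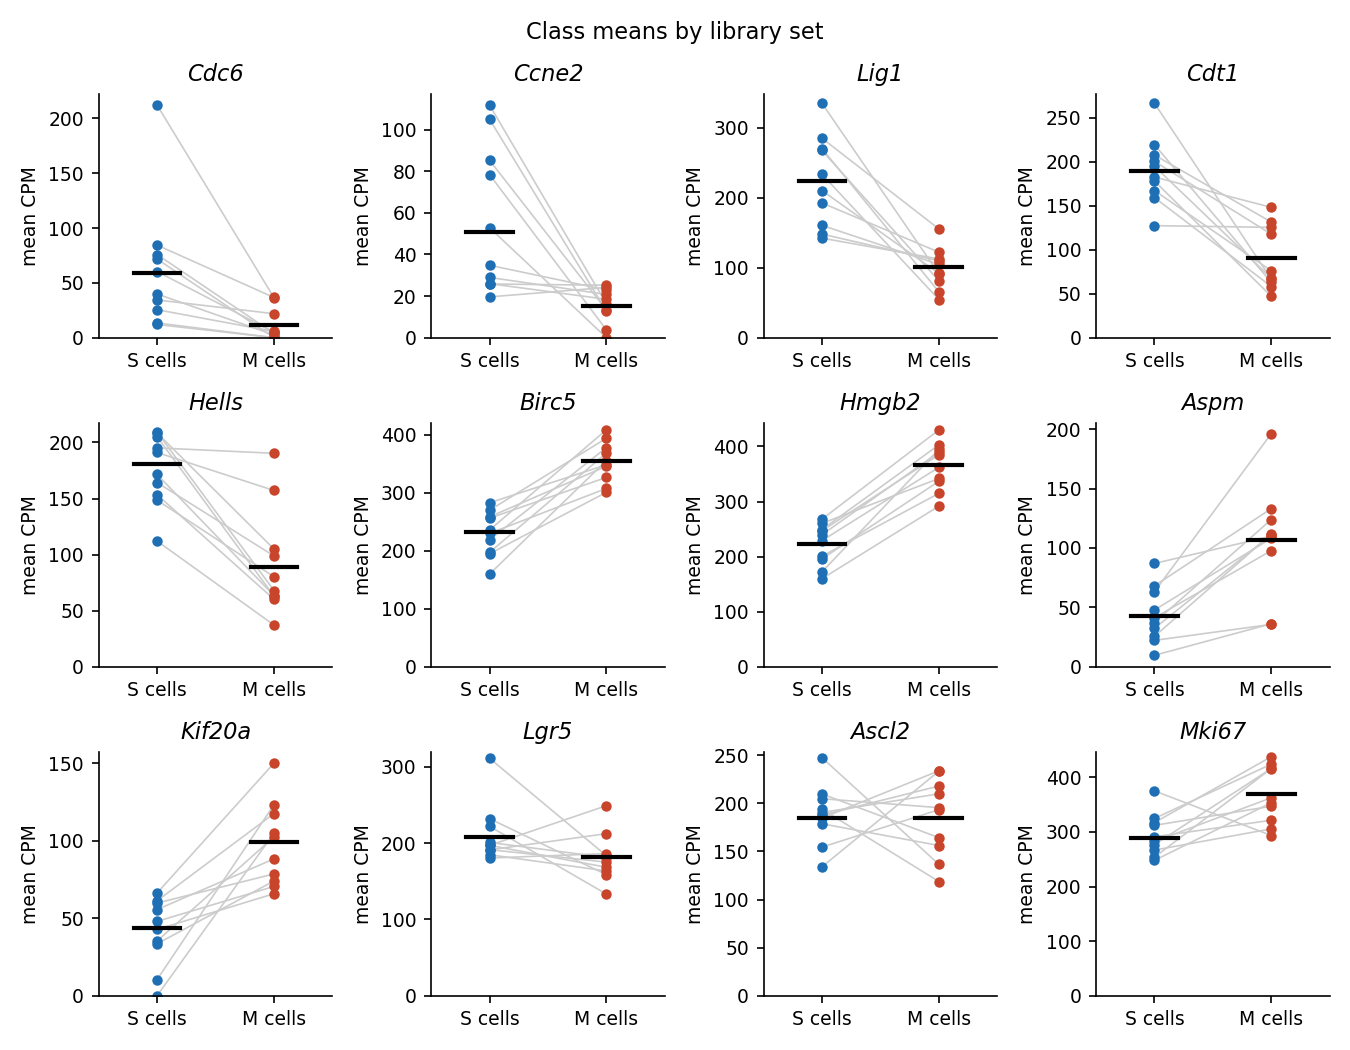
Mean CPM of S cells (blue) and M cells (red) in each of the 10 library sets (points, joined within a set), with black bars at the class means over all cells, for 12 genes. Each y axis starts at 0 and has its own scale. For Birc5 and Hmgb2 the lowest red point lies above the highest blue point, for Cdc6, Lig1, Cdt1 and Hells every line runs down, and for Ascl2 the lines cross.

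The G2 and mitosis lists can be read against the 10.1% of all genes past 1.5-fold toward M cells. G2 regulators had a median of 0.40 (SD 0.31), with 16 of 21 members above 0 and 3 past 1.5-fold (14.3%). Cdc25b, a phosphatase that activates Cdk1, had 36.7 CPM in S cells and 78.5 CPM in M cells, yet was higher in M cells in only 6 of 10 sets (log2 ratio 1.08, SD 1.64). Cdk1 itself had 146.1 and 194.1 CPM (0.41, SD 0.70), and its cyclin Ccna2 had 171.6 and 227.1 CPM (0.40, SD 0.32). Cks2, a small subunit of Cdk1, was higher in M cells in all 10 sets (178.2 and 264.9 CPM, 0.57, SD 0.55). Mki67, the proliferation antigen, had 288.8 and 369.9 CPM (0.36, SD 0.30), and Top2a, the topoisomerase that untangles chromatids, had 443 and 482 CPM (0.12, SD 0.29). These widely used proliferation markers were thus abundant in both classes, and every S and M cell had a Top2a count.

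Kinetochore and centromere genes had 8 of 32 members past 1.5-fold in M cells and 2 in S cells, with a median of 0.41 (SD 0.24). Spdl1, which brings dynein to the kinetochore, had set means of 0, 14.5 and 46.4 CPM in S cells and 18.6, 41.9 and 107.5 CPM in M cells. It was higher in M cells in all 10 sets, with a log2 ratio of 1.53 (SD 1.14), and at 0.87 with cells thinned before the gate. Cenpa, the centromeric histone, had 76.1, 149.5 and 207.98 CPM against 175.7, 285.7 and 329.1 CPM, again higher in M cells in 10 of 10 sets (0.84, SD 0.63). Cenpn, which binds the Cenpa nucleosome, was at 1.10 (19.3 and 42.6 CPM). Zwint and Cenpu, from the same list, were at -0.69 (89.8 and 55.2 CPM) and -0.64 (31.5 and 19.9 CPM), and these were its 2 members past 1.5-fold in S cells.

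Every one of the 15 genes of the passenger complex and spindle checkpoint was above 0, with a median of 0.45 (SD 0.29) and 6 past 1.5-fold. Birc5, also called survivin and a subunit of the passenger complex, had set means of 159.8, 232.9 and 282.9 CPM in S cells and 300.98, 352.2 and 409 CPM in M cells. No M mean fell as low as any S mean. The log2 ratio was 0.61 (SD 0.27), for a gene with a count in every S and M cell, at chr11:117849251-117855743 on the plus strand. Set means without overlap occurred in only 3 measured genes with M cells higher (0.022%) and in 0 with S cells higher. Sgo1, the protector of centromeric cohesion, was at 0.78 (76.99 and 132.9 CPM, SD 0.50), Mad1l1, of the checkpoint, at 0.73 (42.3 and 71.01 CPM, SD 1.66), and both were higher in M cells in all 10 sets. Bub1, a checkpoint kinase, was at 0.11 (58.6 and 63.5 CPM) and Haspin at 0.20. They took the other sign in 1 and 3 of the 21 alternative settings.

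Another of the 3 genes without overlap was Tuba1c, an alpha tubulin, at chr15:99029891-99038110. Its set means were 170.7, 236.4 and 283.6 CPM in S cells and 295.1, 334.6 and 377.3 CPM in M cells. The log2 ratio was 0.47 (SD 0.26), under 1.5-fold. Tuba1c shares 48.98% of its 31-base stretches with Tuba1b and 42.95% with Tuba1a, so its counts depend on how such reads were assigned. The last was Hmgb2, a chromatin protein of dividing cells, at chr8:57511907-57515999, with 159.8, 234.3 and 267.9 CPM in S cells and 291.6, 373.6 and 430 CPM in M cells (0.72, SD 0.20).

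Motors and spindle proteins followed the same direction. All 13 mitotic kinesins were above 0, with a median of 0.48 (SD 0.28) and 5 past 1.5-fold. Nearest 0, Kifc1 (0.11), Kif2a (0.10) and Kif18a (0.13) took the other sign in 2, 3 and 1 of the 21 alternative settings. Kifc1 was at -0.87 with each library set weighted alike. Kif2c, which takes microtubules apart at centromeres, had 33.9 CPM in S cells and 82.1 CPM in M cells (1.25, SD 1.44, 9 of 10 sets). Kif20a, needed for cytokinesis, had set means of 0, 45.4 and 66.3 CPM in S cells and 65.8, 95.4 and 150.2 CPM in M cells, which overlapped by 1 set on each side (1.16, SD 1.97). Kif15, a spindle motor, had 72.9, 103.4 and 171.2 CPM against 136.3, 205.1 and 236.3 CPM (0.79, SD 0.42). Kif20a and Kif15 were higher in M cells in all 10 sets. Among 27 spindle proteins 6 were past 1.5-fold and the median was 0.31 (SD 0.19), or 0.20 without library set 4 and 0.09 with cells thinned to equal totals before the gate. Tpx2, which activates Aurka, was at 0.75 (127.7 and 216.1 CPM, SD 0.35), Hmmr at 0.76 (94.7 and 160.7 CPM, SD 0.61) and Ckap2 at 0.94 (69.7 and 134.2 CPM, SD 0.71), each in all 10 sets. Kpna2, an importin, had few counts (5.07 and 18.9 CPM) and shares 64.2% of its 31-base stretches with 1 annotated pseudogene, so its 1.71 (SD 2.27) is uncertain. Augmin subunits went both ways, with Haus4, Haus7 and Haus8 at -0.51, -0.50 and -0.46 and Haus2 at 0.78.

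Cytokinesis genes had a median of 0.46 (SD 0.13), with 19 of 20 above 0 and 7 past 1.5-fold. Aspm, a spindle pole protein, had set means of 9.56, 39.1 and 86.9 CPM in S cells and 35.6, 110.6 and 196.3 CPM in M cells. M cells were higher in each set although the ranges overlapped, and the log2 ratio was 1.31 (SD 0.56). Cdca3, which helps degrade the kinase Wee1, had 68.2, 113.02 and 242.6 CPM against 170.7, 235.1 and 319.02 CPM (1.08, SD 0.40, 10 of 10 sets). Rock2 was at -0.03.

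Separation of the chromatids split within its own lists. Condensin, cohesin and separation genes had a median of 0.08 (SD 0.11), with 15 of 21 above 0 and 3 past 1.5-fold (14.3%, against 10.1% of all genes). Those 3 were Ncapg, a condensin subunit (78.6 and 139.9 CPM, 0.82), Espl1, the protease separase (45.7 and 80.6 CPM, 0.80), and Pttg1, its inhibitor securin (104.3 and 179.8 CPM, 0.78). Ncapg and Pttg1 were higher in M cells in all 10 sets and Espl1 in 7. Esco2, the acetyltransferase that locks cohesin during replication, was at -0.47 (103.8 and 74.7 CPM, SD 0.59), and higher in S cells in 9 of 10 sets. The cohesin regulator Pds5a was at -0.37 and the condensin II subunit Ncapg2 at -0.30. The 17 genes of the anaphase-promoting complex and its enzymes had a median of 0.18 (SD 0.16), or 0.08 at the lowest, without library set 4. Only 2 were past 1.5-fold (11.8%, close to the 10.1% of all genes). These were Ube2c, its dedicated ubiquitin-conjugating enzyme (247.97 and 401 CPM, 0.69, SD 0.39, 9 of 10 sets), and Fzr1, the activator Cdh1 (28.1 and 69.7 CPM, 1.28, SD 1.45, 8 of 10 sets). Above 0 were 14 of the 17 members, among them the core subunit Anapc7 (0.43). The 3 below 0 were the core subunits Anapc5, Anapc10 and Anapc11, at -0.09, -0.01 and -0.10. They took the other sign in 1, 7 and 1 of the 21 alternative settings.

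Centrosome, nuclear envelope and histone variant lists had medians of 0.13 (SD 0.38), 0.01 (SD 0.21) and 0.13 (SD 0.16). The first ran from 0.07 without library set 4 to 0.26 without library set 6. Nek2, a centrosome kinase, had 36.5 and 71.9 CPM (0.96, SD 1.83), and an antisense gene overlaps its exons. Cep70 was higher in M cells in all 10 sets (52.6 and 83.1 CPM, 0.65, SD 0.75). H2afx, the histone phosphorylated at DNA breaks, was at 0.45 (123.4 and 168.6 CPM, SD 0.70), and Hmgn2 at 0.43 (237.2 and 318.9 CPM, SD 0.34), each higher in M cells in 9 of 10 sets.

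Cells high in both values and cells high in neither, which played no part in the ratios, show where each gene sat outside the 2 classes. Cdc6 had 25.99 CPM in cells high in both and 19.5 CPM in cells high in neither, both well under the 58.8 CPM of S cells. Ccne2 had 25.9 and 20.9 CPM there, against 50.9 CPM in S cells. Chaf1b had 69.5 CPM in cells high in both and 30.1 CPM in cells high in neither, against 83.3 CPM in S cells. Birc5 had 269.4 CPM in cells high in both, below the 355.6 CPM of M cells, while Hmgb2 had 330.4 CPM there and 366.3 CPM in M cells. Aspm had 82.1 CPM in cells high in both and 56.8 CPM in cells high in neither. Lgr5 was lowest in M cells and highest in cells high in neither (225.5 CPM), with all 4 class means between 181.3 and 225.5 CPM.

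**Figure D4:**
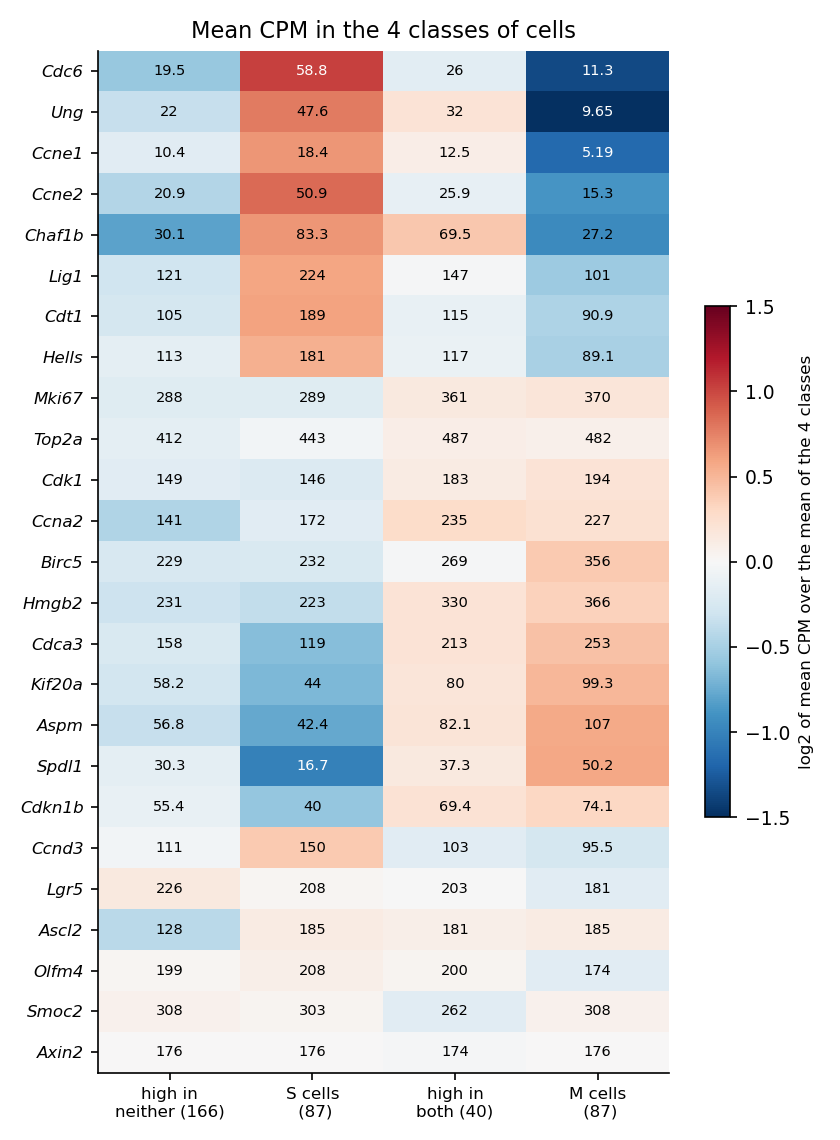
Mean CPM of 25 genes (rows, printed in each cell) in cells high in neither value, S cells, cells high in both and M cells (columns, with the number of cells). Colour is the log2 of each mean over the mean of the 4 classes, red for higher and blue for lower. The 8 replication genes at the top are reddest in S cells, from Birc5 down to Spdl1 the colour is reddest in M cells, and Smoc2 and Axin2 stay pale across the row.

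Genes with the largest ratios were found by a rule that named the 15 highest and the 15 lowest of those that went one way in at least 8 of 10 sets. Most had few counts. Toward M cells, Gtpbp6 had 1.84 CPM in S cells and 16.95 CPM in M cells (log2 ratio 2.66, SD 2.05). It shares exons and sequence with Plcxd1, and its ratio was 1.17 without library set 4 and 1.47 with cells thinned before the gate. Pif1, a helicase of telomeres and the replication fork, was better covered, with 24.4 and 76.8 CPM (1.61, SD 1.21, 9 of 10 sets). Fzd2, a Wnt receptor, had 9.52 and 33.02 CPM (1.69, SD 2.25, 9 of 10 sets). F12, a blood clotting factor, had 15.8 and 46.3 CPM (1.49, SD 2.21) and was at 2.13 without library set 9. Of these 15 genes Spdl1 and Kpna2 were the members of a mitosis list.

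Toward S cells, Aldh1a1, a retinal dehydrogenase, led with 25.5 CPM in S cells and 4.23 CPM in M cells (-2.34, SD 1.78, 8 of 10 sets). It was also at 22.5 and 23.1 CPM in cells high in both and high in neither, so M cells were the class that stood low, and without library set 10 it was at -2.96. Zmynd19, at chr2:24949792-24962075, had set means of 10.2, 40.8 and 88.2 CPM in S cells and 2.99, 7.61 and 42.7 CPM in M cells. It was higher in S cells in 10 of 10 sets (-2.02, SD 1.27) and had 41.4 CPM in cells high in both. Thinned to equal depth, 41.98% of S cells (31.1% to 53.5%) and 9.76% of M cells (4.31% to 18.3%) had a Zmynd19 count. Telo2, which stabilises the kinases ATM and ATR, had 26.4 and 6.77 CPM and was higher in S cells in all 10 sets (-1.82, SD 1.94), or -2.41 without library set 5. Pcna-ps2 (73.7 and 17.2 CPM) shares 75.2% of its 31-base stretches with the gate gene Pcna, and counts of the pair cannot be told apart.

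Of the 17 genes higher in S cells in every set, 7 were members of the replication lists, among them Cdc6, Chaf1b, Lig1, Cdt1, Hells and Dna2, and 10 were of no list. These 10 were chosen for naming after their values were seen. Among them Donson, a factor that assembles the replication helicase, had 43.2 and 14.95 CPM (-1.47, SD 1.52). Pclaf, which binds Pcna, had 295.7 and 204.6 CPM (-0.53, SD 0.32), and Slfn9, a Schlafen family gene, had 95.1 and 45 CPM (-1.06, SD 0.51). Acp5, Slc25a15, Sorbs2 and Itsn1 were between -0.65 and -0.48, and Gm15428 is a copy that shares 70.6% of its 31-base stretches with Pclaf. Of the 51 genes higher in M cells in every set, 20 were members of the G2 and mitosis lists and 28 of no list. Named after their values were seen, those with the largest ratios among the 28 were Tubb4b-ps1 (1.45, a copy of Tubb4b), Proca1 (1.37, SD 2.05), Psrc1 (1.32), Fam83d (1.23) and Cdkn3 (1.08). Psrc1 and Fam83d encode spindle proteins, and Cdkn3 a phosphatase that acts on cyclin-dependent kinases. Cdkn3 had set means of 32.9, 66.2 and 125.2 CPM in S cells and 72.6, 184.4 and 272.4 CPM in M cells.

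The promoters of these genes were read for the elements through which the 2 waves are known to be controlled. RefSeq promoters (GRCm38.p6, from 250 bases before to 50 bases after the start site) were matched by symbol for 84.2% of the replication genes and 82.3% of the G2 and mitosis genes. An E2F site was any of TTTCCCGC, TTTCGCGC, TTTGCCGC and TTTGGCGC, and the CHR was TTTGAA, each on either strand. The following 80-base stretches upstream of the start site hold an E2F site in capitals, and were chosen from replication genes whose stretch overlaps no annotated exon.

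Mcm6, chr1:128359713-128359792, minus strand: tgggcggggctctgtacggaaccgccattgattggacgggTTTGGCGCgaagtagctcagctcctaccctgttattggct
Dtl, chr1:191575545-191575624, minus strand: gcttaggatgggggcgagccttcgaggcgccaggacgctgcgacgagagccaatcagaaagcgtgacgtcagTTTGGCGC
Pola1, chrX:93632254-93632333, minus strand: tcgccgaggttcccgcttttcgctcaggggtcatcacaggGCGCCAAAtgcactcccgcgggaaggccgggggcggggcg
E2f3, chr13:29986064-29986143, minus strand: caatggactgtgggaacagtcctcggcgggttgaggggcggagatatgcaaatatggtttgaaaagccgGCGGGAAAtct
Uhrf1, chr17:56304088-56304167, plus strand: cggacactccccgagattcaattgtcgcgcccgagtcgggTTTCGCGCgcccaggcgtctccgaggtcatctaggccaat

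Mcm6 encodes a helicase subunit and is a gate gene (log2 ratio -0.99). Dtl (-1.02) directs the destruction of Cdt1, Pola1 (-0.94) is the catalytic subunit of polymerase alpha, E2f3 (-0.72) is itself an E2F factor, and Uhrf1 was at -1.34. The next stretches hold a CHR in capitals and come from genes higher in M cells, chosen in the same way.

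Hmgb2, chr8:57511763-57511842, plus strand: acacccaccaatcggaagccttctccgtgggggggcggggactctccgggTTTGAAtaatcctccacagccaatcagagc
Ckap2l, chr2:129297213-129297292, minus strand: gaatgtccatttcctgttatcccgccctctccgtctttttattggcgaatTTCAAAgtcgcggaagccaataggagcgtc
Fam83d, chr2:158768009-158768088, plus strand: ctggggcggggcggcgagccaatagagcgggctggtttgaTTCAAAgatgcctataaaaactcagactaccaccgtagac
Cdkn3, chr14:46760390-46760469, plus strand: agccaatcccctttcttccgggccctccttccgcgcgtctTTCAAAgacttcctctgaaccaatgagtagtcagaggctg
Kif2c, chr4:117178836-117178915, minus strand: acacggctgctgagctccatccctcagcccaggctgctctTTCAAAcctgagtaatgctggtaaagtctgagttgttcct

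Where the capitals read TTCAAA, the element lies on the opposite strand. Ckap2l encodes a spindle protein (0.62, SD 0.59), and Hmgb2, Fam83d, Cdkn3 and Kif2c were at 0.72, 1.23, 1.08 and 1.25. A match of letters is a description of the promoter, not a bound site.

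An E2F site stood in 36 replication promoters (32.1% of those matched), in 11.9% of the G2 and mitosis promoters and in 2.61% of all 27025 genes of the promoter table. A CHR stood in 63 G2 and mitosis promoters (46.7% of those matched), in 16.96% of the replication promoters and in 20.2% of all genes. The promoter table also holds genes not measured here, so its shares are not those of measured genes. Shares over measured genes are not given, because only 71.3% of them matched a promoter. Within the lists the letters went with the size of the ratio. G2 and mitosis genes with a CHR had a median log2 ratio of 0.45 (63 genes) and those without one 0.16 (72 genes). Replication genes with an E2F site had a median of -0.62 (36 genes) and those without one -0.26 (76 genes). Of the G2 and mitosis genes 1.5-fold or more higher in M cells, 62.9% had a CHR, against 41% of the other members. Among the 51 genes higher in M cells in all sets a CHR stood in 20 of the 46 matched (43.5%), and among the 17 higher in S cells in all sets in 0 of 15. Another form of the element, TTTAAA, stood in 10.4% of the G2 and mitosis promoters, in 10.7% of the replication promoters and in 14.9% of all genes. With either form counted, 23 of the 46 and 4 of the 15 had a match. The letters CCAAT, also read on either strand, stood in 60% of the G2 and mitosis promoters, in 57.1% of the replication promoters and in 41.1% of all genes. The middle quartiles of the ratios with and without an element overlapped, from 0.28 to 0.70 with a CHR and from 0.01 to 0.50 without one.

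**Figure D5:**
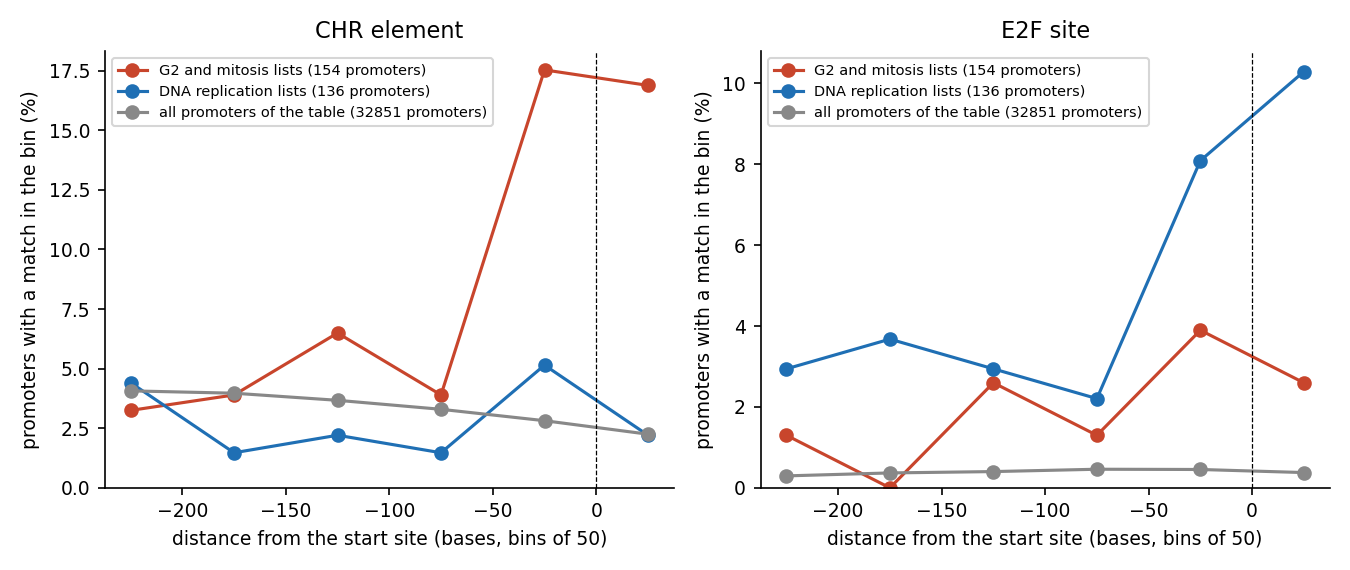
Share of promoters with a match (y axis, percent) in bins of 50 bases by distance from the start site (x axis, dashed line at the start), for the CHR (left) and the E2F site (right). Red is the G2 and mitosis lists, blue the replication lists and grey all promoters of the table. In the last 50 bases before the start, the CHR stands in 17.5% of G2 and mitosis promoters, against 2.82% of all promoters. In the same bin the E2F site stands in 8.09% of replication promoters, against 0.454%. The E2F site is highest in the bin after the start, at 10.3% against 0.378%.

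Crypt base stem cell genes lay close to 0, with a small lean toward S cells. Of 22 genes, 15 were below 0, and the median was -0.07 (SD 0.15), below 0 in 8 of 10 sets. None was past 1.5-fold in either direction, against 10.1% of all genes toward M cells and 11.9% toward S cells. The Lgr5 ratio ran from -0.31 to -0.12 over the 21 alternative settings. Lgr5 had set means of 180.5, 197.1 and 311.3 CPM in S cells and 133.2, 178.1 and 249.1 CPM in M cells, which overlapped, with a log2 ratio of -0.20 (SD 0.36). Ascl2, the transcription factor that maintains these cells, had set means of 133.98, 189.1 and 247.5 CPM in S cells and 118.7, 194.5 and 233.9 CPM in M cells, with the M cells higher in 5 of 10 sets. Axin2, a Wnt target, had 176.02 and 175.7 CPM in S and M cells. Smoc2 had 303.4 and 307.8 CPM (0.02, SD 0.42), and Olfm4 had 207.5 and 173.5 CPM (-0.26, SD 0.63). The largest ratio of the list was that of Tnfrsf19, a Wnt target also known as Troy, at -0.55 (71.3 and 48.4 CPM, SD 0.78). It was higher in S cells in 9 of 10 sets, and at -1.24 with cells thinned before the gate. Among reserve stem cell genes Hopx was at 0.04 (242.3 and 249.4 CPM), Lrig1 at -0.28 (152.2 and 125.2 CPM) and Bmi1 at -0.40 (SD 2.67).

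Mex3a, the RNA-binding protein the series is named for, was too sparse to place. It had 16 counts over all S cells and 28 over all M cells, with class means of 5.59 and 9.55 CPM. The log2 ratio was 0.68 (SD 2.52), and with the upper quartile in place of the tertile it was -0.24. After thinning, 7.41% of S cells (2.77% to 15.4%) and 8.54% of M cells (3.50% to 16.8%) had a count, with intervals over cells of 1 sample. Its relative Mex3c was at 0.43 (57.7 and 78.2 CPM, SD 0.95).

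G1 cyclins and brakes had a median of 0.03 (SD 0.16) and went both ways. The D cyclins Ccnd1 (162.8 and 155.9 CPM) and Ccnd2 (396.98 and 383.2 CPM) were at -0.06 and -0.05, while Ccnd3 was at -0.65 (150.3 and 95.5 CPM, SD 0.53) and higher in S cells in 8 of 10 sets. The retinoblastoma gene Rb1, which holds E2F in check, was also higher in S cells in 8 sets (70.6 and 44.1 CPM, -0.67, SD 0.77). Cdkn1b, the Cdk inhibitor p27, had set means of 8.71, 28.6 and 87.8 CPM in S cells and 11.4, 81.3 and 104.04 CPM in M cells (0.87, SD 1.14), in 7 of 10 sets. Ccng2, a cyclin linked to cell cycle exit, was at 0.79 (18.5 and 32.5 CPM, SD 1.60) and higher in M cells in 9 sets. Cdkn1a, the inhibitor p21, had 12.9 and 9.17 CPM and was at 0.41 without library set 9.

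Growth and metabolism lists lay near 0. Medians were -0.03 (SD 0.13) for 24 ribosome biogenesis genes, 0.00 (SD 0.12) for 17 translation factors and -0.01 (SD 0.15) for 24 nuclear genes of the respiratory chain. Glycolysis was at -0.10 (SD 0.23), with 1 of 15 members past 1.5-fold, the phosphofructokinase Pfkl (43.4 and 22.7 CPM, -0.91, SD 1.24). Myc, the growth regulator, was at 0.31 (68.6 and 85.3 CPM, SD 0.51) and higher in M cells in 9 of 10 sets, and Lgr4, another R-spondin receptor of these cells, at 0.38 (128.2 and 166.6 CPM, SD 0.30) in 9 sets.

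Markers of other cell types had counts in both classes. Summed levels in S and M cells were 179.7 and 134.1 CPM over the 8 tuft cell markers measured, 556 and 554 CPM over 9 goblet markers, and 715 and 703 CPM over 11 enterocyte markers. The 10 Paneth cell markers summed to 1414 and 1545 CPM, with Defa24, an alpha-defensin, at 550 and 583 CPM and Lyz1, the lysozyme, at 189.6 and 216.9 CPM. Immune markers summed to 106.3 and 113.4 CPM, enteroendocrine to 18.9 and 12.3 CPM, stromal to 15.2 and 16.9 CPM and endothelial to 43.7 and 49.6 CPM. The tuft and enteroendocrine sums were thus higher in S cells. All 8 tuft markers were below 0 (median -0.66, SD 0.75), and 4 were past 1.5-fold in S cells (50%, against 11.9% of all genes). However, the median was below 0 in only 6 of 10 sets and above 0 in 3, and it was -0.07 without library set 1. Pou2f3, the tuft transcription factor, carried most of those counts with 94.4 and 78.6 CPM (-0.26). Epithelial markers were even, with Epcam at 469 and 512 CPM (0.13, SD 0.22) and Krt8 at 395.3 and 386.2 CPM (-0.03). The part of other cell types in the differences above was not tested.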

How the data were processed

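The deposited table held whole-number counts for 33496 genes in 400 single cells, used as raw counts although their scale (molecule counts or a transformed scale) is not stated. Per the submitters' processing notes, reads were placed on GRCm38.p4. For the aligner, counter, annotation release, strand setting and molecular identifiers, details were not given in the sources used here. Symbols and positions came from GENCODE M21 (33219 identifiers matched). RefSeq promoters carry the label GRCm38.p6.

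Cells with at least 10000 counts were kept (380), and the 20 others were left out. CPM, class means, log2 ratios (pseudocount 1 CPM), set SDs and list medians were computed with numpy 2.4.6 and pandas 2.3.3, and Clopper-Pearson intervals at 95% with scipy 1.17.1. For shares of cells with a count, cells were thinned to 19169 counts, which left out 6 S and 5 M cells. The ratio script was tested on simulated data. The members, lists and rules were chosen with earlier results of these data known.

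Named genes are the gate genes, the 15 highest and 15 lowest ratios among measured genes with 8 or more of 10 sets in 1 direction, up to 3 highest and 3 lowest of each list, and a few cell cycle and stem cell genes. Genes with the same direction in all sets, Smoc2 and Axin2 were added after seeing the values. Of the 322 named genes, 108 share exons with another gene, which makes their counts uncertain without strand. Alternatives covered thinning before the gate, the pseudocount, filters, the gate limit, the mean, weights, depth, cells with many genes and each library set left out. Leaving out genes that share sequence with a gate gene was chosen after seeing the data. Some list members are not reported here by name.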

Additional observations from a re-analysis of the deposited data

How the results depend on the processing

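The share of genes past 1.5-fold depends on the processing. Of the genes tested, those counted as genes higher in M cells were 2.27% with a pseudocount of 10 CPM, 12.6% (3874) with no filter on low counts and 11.7% (1591) with each library set weighted alike. The share counted as genes higher in S cells was 2.70% with that pseudocount and 14.1% (4309) with no filter. Leaving out each library set gave 6.20% to 8.26% for M cells and 7.20% to 8.85% for S cells. The medians of the replication, the G2 and mitosis and the stem cell lists stayed on their side of 0 in all 21 alternatives, while others took the other sign in some. Close to 0, these were the G1, nuclear envelope, immediate early, translation factor, respiratory chain, endothelial (-0.02) and enterocyte (-0.09) lists. The Wnt and Myc list, also close to 0, did so in 9. Further from 0 were the reserve stem cell genes (-0.28, but 0.04 without library set 6 and 0.01 without library set 1). So were the stromal (0.46, lowest -0.13), immune (0.30, lowest -0.11), goblet (-0.18, highest 0.32), Paneth and enteroendocrine marker lists. The passenger complex list was at 0.76 with the difference of mean log2(CPM + 1). Without each library set in turn the replication lists ran from -0.41 to -0.35, the G2 and mitosis lists from 0.28 to 0.37 and the stem cell list from -0.11 to -0.05. The G2 and mitosis lists were at 0.45 with the difference of mean log2(CPM + 1). Among named genes past 1.5-fold, 11 values took the other sign. With cells thinned before the gate these were Cdkn1c (-0.76), Mmp7 (-0.076), Ccl9 (0.90), Apoc3 (-0.28) and Dcn (0.81). With the upper quartile they were Cdkn1c (-0.21) and Mex3a (-0.24), with sets weighted alike Mex3d (0.10), Muc2 (0.55) and Kdr (-0.44), and without library set 6 Kdr (-0.26, in a range of -0.26 to 1.12 over the sets left out). The cause was not tested. S and M cells share each library set, and the values within sets are those given in the report. Depth limits genes with few counts, whose means can be 0 in a library set.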

Other observations

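Replication-dependent histone genes, a list added after seeing the data, had 49 of 67 members with a count in 5% of kept cells. Of these, 33 were above 0 and 16 below, and 13 were 1.5-fold or more higher in M cells and 9 in S cells, against 10.1% and 11.9% of all genes. The median log2 ratio was 0.25 (SD 0.38 over library sets), and the median was above 0 in 4 sets and below 0 in 1 set. Their summed level was 1094 CPM in S cells, 1275 CPM in M cells, 1329 CPM in cells high in both values and 1020 CPM in cells high in neither. Most of these mRNAs lack a poly(A) tail, and the labels give the molecule as polyA RNA.

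Notch pathway and secretory fate genes had 4 of 12 measured members 1.5-fold or more higher in M cells (33.3%, against 10.1% of all genes). None was that much higher in S cells, against 11.9% of all genes, and the list's median was 0.29 (SD 0.32). The median was 0.08 without library set 10 and 0.04 with cells thinned before the gate. The Notch ligands went both ways. Dll1 had 10.7 CPM in S cells and 22.3 CPM in M cells (0.99, SD 2.12, higher in M cells in 8 of 10 sets), while Jag1 had 16.6 and 11.02 CPM (-0.55, SD 2.80) and was higher in S cells in 6 sets. Atoh1, the factor that sets secretory fate, had 6 counts over all S cells and 23 over all M cells (1.62 and 7.71 CPM). In most library sets neither class had an Atoh1 count, and its ratio of 1.73 was 1.06 without library set 5 and 2.59 without library set 9.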
